A study of Canis lupus familiaris with 10 samples.

Results

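The genes that make, sense and inactivate prostaglandins were followed in cells cultured from hemangiosarcoma of 10 dogs. They were chosen by name, as all probe sets annotated to PLA2G4A, PTGS1, PTGS2, PTGES, PTGES2, PTGES3, PTGIS, PTGER2, PTGER4 and HPGD. These 10 genes, of 15115 named on the Canine_2 array, had 17 of its 42924 probe sets besides the controls.

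Hemangiosarcoma is a malignant tumor of blood vessel forming cells that is common in dogs. The study asked whether the expression profile of the tumor cells differs with breed, and it compared 6 Golden Retrievers (ChadG4, ChadG6, ChadG8, Frog, Journey and Tucker; 3 males and 3 females, 6 to 12 years old) with 3 non-Golden Retrievers, all males of 7 to 9 years: ChadP9, a Portuguese Water Dog, Dal4, a Dalmatian, and Joey, a Rottweiler. DD1, a male of 9 years, was the F1 of a Golden Retriever and a Great Pyrenees and was left out of the breed comparison. Each array held RNA of bulk cultured cells of 1 dog, taken from frozen stocks of the earliest passages at hand, with no treatment stated. A p-value therefore sets the difference between the groups against the spread between dogs, and the number of arrays limits its precision. Each dog gave 1 array, so dog, culture and array cannot be told apart in that spread. Fewer cells of a type also cannot be told apart from less RNA per cell. Frog and Journey were distant relatives, and all 3 females were Golden Retrievers.

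Prostaglandins are lipid signals made from arachidonic acid, which a phospholipase frees from the cell membrane. The cyclooxygenases turn it into an unstable intermediate, and terminal synthases convert this into prostaglandin E, prostacyclin and related products that act on receptors of nearby cells before a dehydrogenase inactivates them. In blood vessels prostacyclin widens the vessel and restrains platelets, and in many tumors prostaglandin E from the inducible cyclooxygenase is known to promote growth and new vessels.

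Signals are the deposited log2 values, on which 1 unit is a doubling, and the level of one gene cannot be set against that of another. A probe set was taken as measured where it lay above the 40th percentile of its array, which was 5.02 to 5.16 on the 10 arrays, and it was tested where this held on at least 3 arrays. That left 26891 probe sets, among them 13 of the 17 and 8 of the 10 genes. Median signals of the arrays were 5.77 to 5.83. Dal4 and ChadG4, 1 dog of each group, joined the average linkage tree of all tested probe sets last, so results that rest on them are also given without them. Hemangiosarcoma is classed as an endothelial tumor, and of its defining markers PECAM1 lay below the threshold on all 10 arrays, while CDH5 was just above it at 5.15 to 5.41. Of the 12 endothelial markers 6 were tested, 4 lay above the threshold on all 10 arrays and 4 on none. KDR was among those above it on all 10, at 6.51 to 8.25. ERG was above it on 9 arrays, FLT1 on 4, with up to 8.38, VWF on 2 and ENG on 1. Of the 7 macrophage and leukocyte markers 4 were tested, 3 lay above it on all 10 arrays and 3, with PTPRC among them, on none. All 8 fibroblast markers were tested, 7 of them above it on all 10 arrays.

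None of the 8 tested genes differed between the breed groups by more than the spread between dogs allowed for. In limma's moderated test 0 of the 13 tested probe sets had an adjusted p under 0.05, against 0.00372% of all tested probe sets. In the same fit 0 had an unadjusted p under 0.05, against 6.32% of all tested probe sets (1.81% higher and 4.5% lower in Golden Retrievers). The methods' t-test also called 0 members after adjustment, against 0.00744% of all tested probe sets, and 0 before it, against 5.65%. In the Golden Retrievers 5 probe sets were higher and 8 lower in mean than in the non-Golden Retrievers, with a median difference of -0.06, and the median over all tested probe sets was -0.02. The groups overlapped for all 17 probe sets, while 2.45% of all tested probe sets had groups that did not overlap. The smallest adjusted p of a member was 0.788. What the data showed instead were differences from dog to dog, which were wide for some enzymes and receptors and narrow for others.

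**Figure D1:**
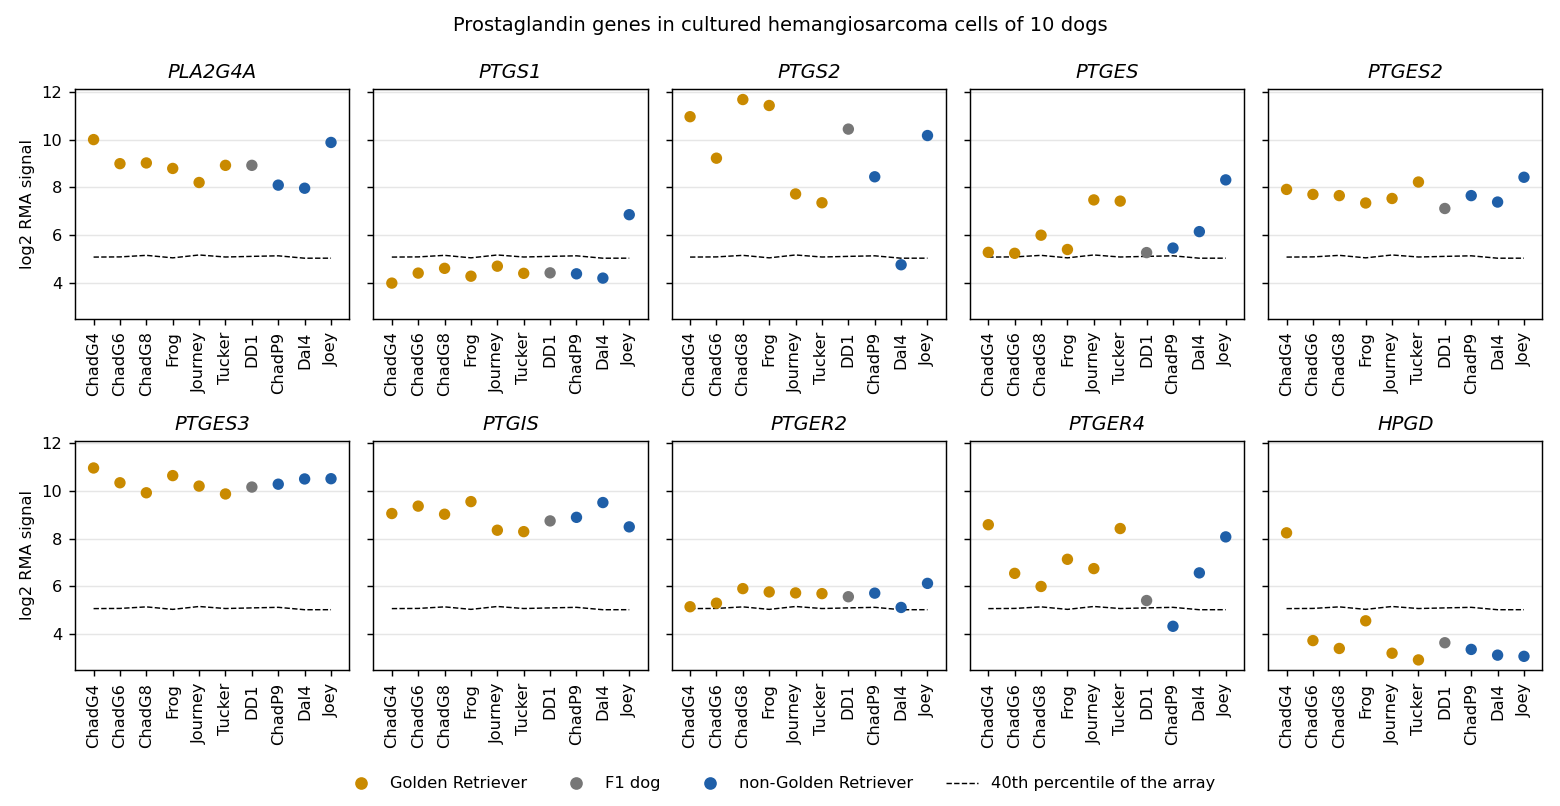
Log2 RMA signal (vertical axis) of the 10 genes in each dog (horizontal axis), with 1 point per array, coloured by breed group. The dashed line is the 40th percentile of each array. PTGS2, PTGES, PTGER4 and PLA2G4A ranged over 2 log2 units or more, PTGS1 cleared the line only in Joey and HPGD only in ChadG4; heights cannot be compared between panels.

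PLA2G4A is the cytosolic phospholipase A2, which frees arachidonic acid from the membrane. By its probe set of highest mean signal (Cfa.2937.1.A1_at), the Golden Retrievers had 8.20 at the lowest, 8.96 in the median and 10.00 at the highest, DD1 had 8.92, and the non-Golden Retrievers had 8.09 in ChadP9, 7.96 in Dal4 and 9.88 in Joey. ChadG4 and Joey, 1 dog of each group, stood above the rest. ChadP9 and Dal4 lay below the lowest Golden Retriever, Journey, so the groups overlapped through Joey alone. The means were 8.99 ± 0.58 in Golden Retrievers (SD, n = 6) and 8.64 ± 1.08 in non-Golden Retrievers (SD, n = 3), a difference of 0.34 (SE 0.472, 95% confidence interval -0.72 to 1.40, limma adjusted p = 0.919). The size rested on single dogs: the difference was 0.96 without Joey, where the unadjusted p but not the adjusted p passed 0.05, and -0.001 without Dal4. Without ChadG4 and Dal4 together it was -0.20.

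A second probe set of PLA2G4A (CfaAffx.21308.1.S1_s_at) ordered the dogs much as the first did, with signals of 7.85 in Dal4 to 9.80 in ChadG4. Over the 10 dogs the pair had a Pearson r of 0.96. The third (Cfa.2557.1.S1_at) did not follow them: it stayed between 6.12 and 6.53 in all dogs, with r = -0.24 to each of the others, and its SD over the dogs exceeded that of only 4.87% of the tested probe sets. ChadG4, the dog with the highest signal by the other probe sets, had the lowest by this one.

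The cyclooxygenases commit arachidonic acid to prostaglandins. PTGS1, the form that many tissues make all the time, lay below the threshold in 9 of 10 dogs. The Golden Retrievers had 3.98 at the lowest, 4.40 in the median and 4.69 at the highest, DD1 had 4.41, and the non-Golden Retrievers had 4.37 in ChadP9, 4.19 in Dal4 and 6.85 in Joey. Joey was thus the only dog with a measured signal, 2.15 log2 units above the next dog, Journey. The probe set was not tested for breed. In a fit with no filter the difference was -0.75 (SE 0.513, limma adjusted p = 0.909), and with Joey left out the group means were 4.39 in Golden Retrievers and 4.28 in non-Golden Retrievers.

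PTGS2, the inducible cyclooxygenase and the target of the anti-inflammatory drugs called coxibs, had the widest range of the 10 genes. The Golden Retrievers had 10.96 in ChadG4, 9.22 in ChadG6, 11.68 in ChadG8, 11.43 in Frog, 7.72 in Journey and 7.35 in Tucker. DD1 had 10.44, and the non-Golden Retrievers had 8.44 in ChadP9, 4.75 in Dal4 and 10.17 in Joey. Dal4 was the only dog below the threshold of its array, 2.61 log2 units under the next lowest dog, Tucker, and the 2 Golden Retrievers Journey and Tucker were lower than ChadP9 and Joey. The SD over the 10 dogs, 2.18, was larger than that of 99.6% of the tested probe sets, whose median SD was 0.33.

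The mean PTGS2 signal was 9.73 ± 1.91 in Golden Retrievers (SD, n = 6) and 7.79 ± 2.77 in non-Golden Retrievers (SD, n = 3). The difference of 1.94 (SE 1.34, 95% confidence interval -1.07 to 4.95) did not pass limma's test (unadjusted p = 0.179, adjusted p = 0.815). It rested largely on Dal4: without that dog it was 0.42, without ChadG4 and Dal4 it was 0.18, and without Joey it was 3.13. Over the 8 fibroblast markers Dal4 had the lowest mean signal, 10.40 against 11.13 to 11.67 in the other dogs. LUM was at 4.40 in Dal4 and at 12.47 or more elsewhere. Over the other 7 fibroblast markers Dal4 had a mean of 11.26, within the 10.72 to 11.36 of the other dogs. The part of these markers in the PTGS2 signal was not tested.

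PTGES, the membrane-bound prostaglandin E synthase that is often induced together with PTGS2, was highest in other dogs. By its probe set of highest mean (Cfa.12190.1.A1_at), the Golden Retrievers had 5.27 in ChadG4, 5.23 in ChadG6, 5.99 in ChadG8, 5.39 in Frog, 7.47 in Journey and 7.42 in Tucker. DD1 had 5.26, and the non-Golden Retrievers had 5.45 in ChadP9, 6.14 in Dal4 and 8.31 in Joey. Journey, Tucker and Joey thus stood above the other 7 dogs, which had 5.23 to 6.14. The difference between the groups was -0.51 (SE 0.738, limma adjusted p = 0.926), and it was 0.33 without Joey and -1.10 without ChadP9.

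A second probe set (CfaAffx.30585.1.S1_s_at) gave the same 3 dogs at the top, with 6.52 in Journey, 6.71 in Tucker and 7.03 in Joey against 5.35 to 5.89 in the others. Its r to the first was 0.99 over the 10 dogs. The third (CfaAffx.30585.1.S1_at) was above the threshold only in Joey, at 5.25. Journey, Tucker and Joey also had the highest mean signals over the 4 epithelial markers, 8.31, 8.23 and 8.88, against 4.95 to 7.69 in the other dogs. Among these markers EPCAM passed the threshold only in Tucker (8.03) and Joey (8.87), and CDH1 passed it in no dog. KRT8 was at 9.45 to 11.39 in the 3 dogs, within the 3.82 to 11.67 of the others, and KRT18 was at 11.88 to 13.22, against 3.57 to 11.61 in the others. The part of these markers in the PTGES signal was not tested.

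**Figure D2:**
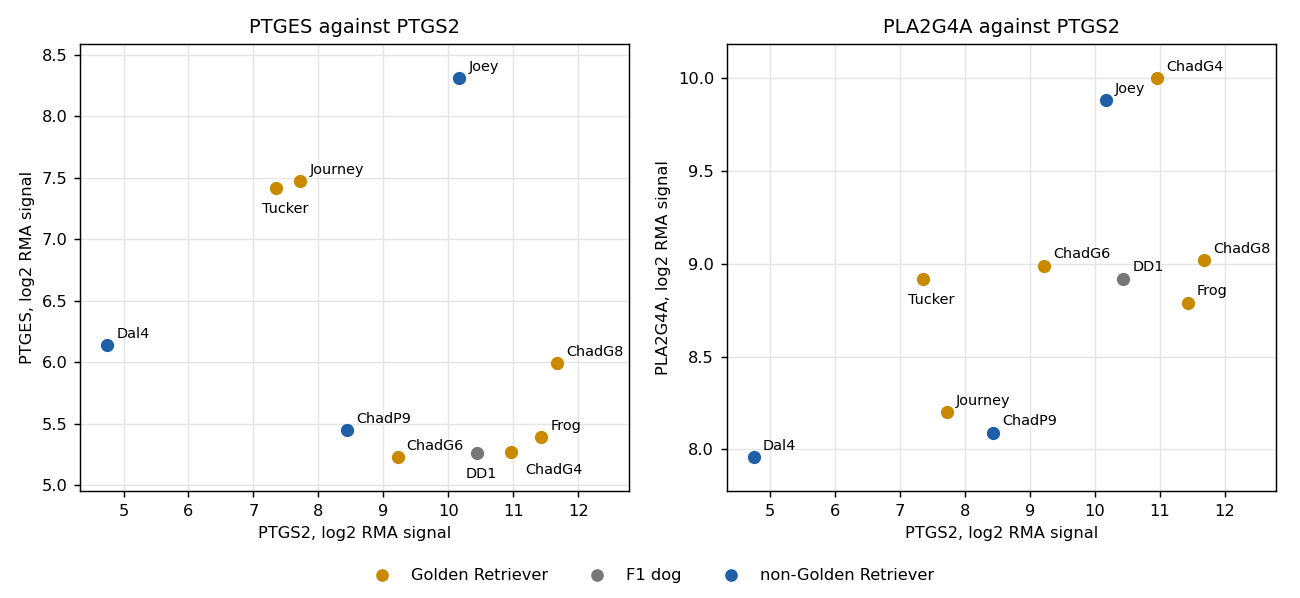
Log2 RMA signals of PTGES (left) and PLA2G4A (right) on the vertical axes against PTGS2 on the horizontal axes, with 1 point per dog coloured by breed group. Journey and Tucker had high PTGES and low PTGS2, Joey was high in both, and ChadG8, Frog, ChadG4 and DD1 were high in PTGS2 with PTGES at 5.26 to 5.99.

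The inducible cyclooxygenase and the inducible E synthase therefore did not rank the dogs alike. ChadG8, Frog, ChadG4 and DD1, the dogs with the highest PTGS2 signals, had PTGES signals of 5.26 to 5.99. Journey and Tucker, the Golden Retrievers with the highest PTGES signals, had the lowest PTGS2 signals of that group. Joey had the highest PTGES signal and a PTGS2 signal of 10.17. Over the 10 dogs r was -0.29 for PTGS2 and PTGES, and it was also -0.29 without Dal4 and Tucker, the 2 dogs farthest from the median of PTGS2. PTGS2 and PLA2G4A had r = 0.65, and 0.59 without the same 2 dogs. In the RefSeq annotation of assembly UU_Cfam_GSD_1.0 these 2 genes lie on one chromosome with 0 protein-coding genes between them. Whether their position bears on this r was not tested. Over all 10 dogs similar r were found for PTGES with PTGES2 (0.65) and for PTGER4 with PLA2G4A (0.64). The first was 0.59 without Joey and Journey, and the second fell to 0.34 without ChadP9 and ChadG4. Over the 28 pairs of the 8 tested genes r ran from -0.71, for PTGES and PTGIS, to 0.65. All pairs share the same 10 arrays, and these values are a description without a test.

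**Figure D3:**
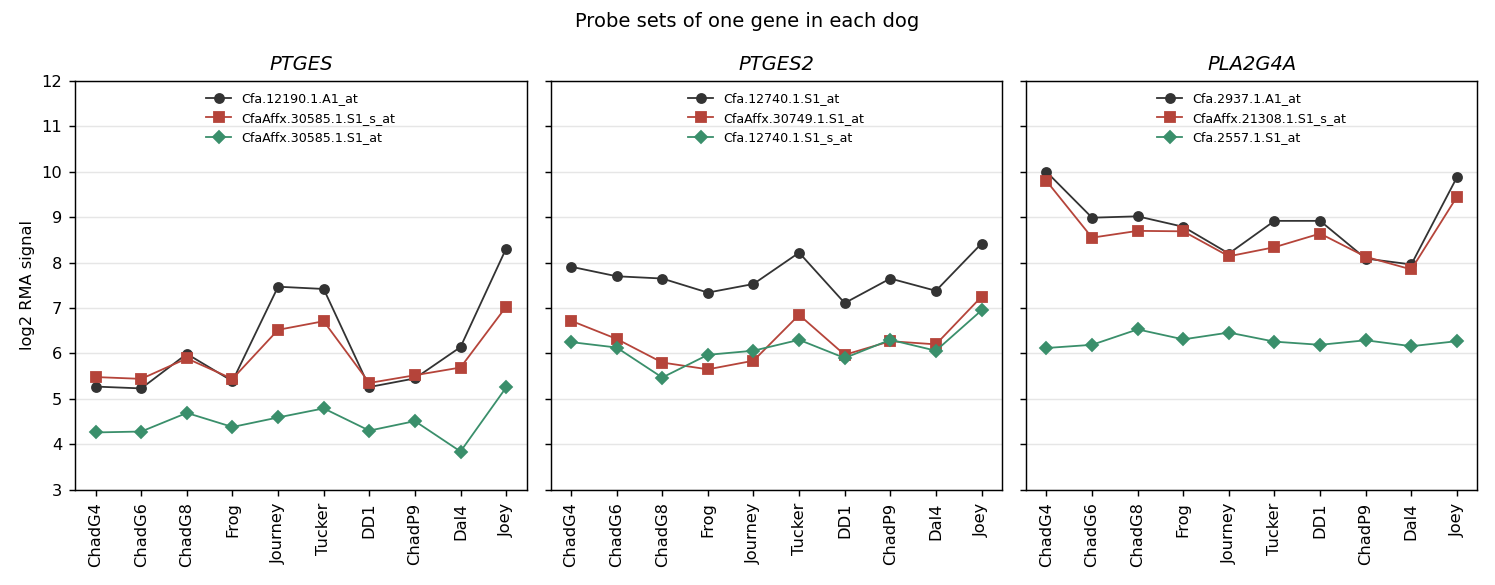
Log2 RMA signal (vertical axis) of the 3 probe sets each of PTGES, PTGES2 and PLA2G4A in every dog (horizontal axis; Golden Retrievers, the F1 dog DD1, then non-Golden Retrievers). The curves of a gene ran together for PTGES2 and for 2 probe sets of PTGES, while Cfa.2557.1.S1_at of PLA2G4A stayed between 6.12 and 6.53.

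PTGES2 and PTGES3, the other E synthases, varied less. PTGES2 is a membrane-associated enzyme, and its probe set of highest mean (Cfa.12740.1.S1_at) had 7.34 at the lowest, 7.67 in the median and 8.22 at the highest in Golden Retrievers, 7.11 in DD1, and 7.65 in ChadP9, 7.38 in Dal4 and 8.42 in Joey. Joey and the Golden Retriever Tucker were the highest and DD1 the lowest, and the groups overlapped. The difference was -0.09 (SE 0.258, limma adjusted p = 0.967). Its other probe sets followed with r of 0.87 (CfaAffx.30749.1.S1_at) and 0.71 (Cfa.12740.1.S1_s_at). The smallest p of all members belonged to Cfa.12740.1.S1_s_at, with means of 6.03 ± 0.30 in Golden Retrievers and 6.44 ± 0.46 in non-Golden Retrievers and a difference of -0.40 (SE 0.239, unadjusted p = 0.123, limma adjusted p = 0.788). Its unadjusted p passed 0.05 when Dal4 was left out, and the adjusted p did not.

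PTGES3, also known as p23, is a cochaperone of HSP90 and a cytosolic prostaglandin E synthase. The Golden Retrievers had 9.88 at the lowest, 10.28 in the median and 10.97 at the highest, DD1 had 10.17, and the non-Golden Retrievers had 10.29 in ChadP9, 10.51 in Dal4 and 10.52 in Joey. The 3 non-Golden Retrievers lay inside the range of the Golden Retrievers. The difference was -0.11 (SE 0.244, 95% confidence interval -0.66 to 0.44, limma adjusted p = 0.956), and the SD over the 10 dogs, 0.33, was larger than that of 50.5% of tested probe sets. All 9 listed HSP90 genes and partners were tested, 4 higher and 5 lower in Golden Retrievers, and none at an unadjusted p under 0.05.

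PTGIS, prostacyclin synthase, turns the cyclooxygenase product into prostacyclin and is typical of vessel wall cells. It was measured in all 10 dogs, with 8.30 at the lowest, 9.05 in the median and 9.56 at the highest in Golden Retrievers, 8.75 in DD1, and 8.90 in ChadP9, 9.52 in Dal4 and 8.50 in Joey. Tucker, Journey and Joey, the dogs with the highest PTGES signals, had the 3 lowest PTGIS signals. The group means were 8.95 ± 0.52 in Golden Retrievers (SD, n = 6) and 8.98 ± 0.51 in non-Golden Retrievers (SD, n = 3), a difference of -0.03 (SE 0.331, 95% confidence interval -0.77 to 0.72, limma adjusted p = 0.992). Of the other synthases of the same intermediate, the thromboxane synthase TBXAS1 and the prostaglandin D synthase HPGDS lay below the threshold on all 10 arrays, and the second prostaglandin D synthase, PTGDS, lay above it on all 10, at 5.10 to 6.82.

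**Figure D4:**
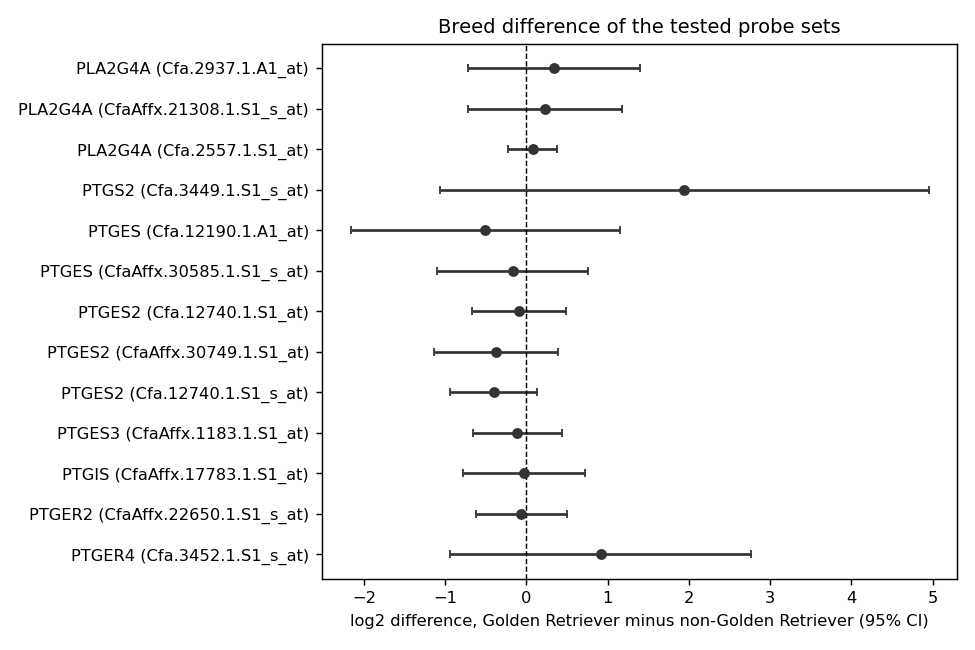
Log2 difference of Golden Retrievers minus non-Golden Retrievers (horizontal axis) for the 13 tested probe sets (vertical axis, in pathway order), with the 95% confidence interval of the limma fit as bars. All 13 intervals include 0, and those of PTGS2 (-1.07 to 4.95) and PTGER4 (-0.94 to 2.77) are the 2 widest.

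PTGER2 and PTGER4 encode the prostaglandin E receptors that raise cyclic AMP. PTGER4 was the more variable receptor, with signals in the Golden Retrievers of 8.59 in ChadG4, 6.55 in ChadG6, 6.00 in ChadG8, 7.14 in Frog, 6.75 in Journey and 8.43 in Tucker. DD1 had 5.41, and the non-Golden Retrievers had 4.33 in ChadP9, 6.57 in Dal4 and 8.08 in Joey. ChadG4, Tucker and Joey were the highest and ChadP9, the only dog below the threshold, the lowest. The means were 7.25 ± 1.05 in Golden Retrievers (SD, n = 6) and 6.33 ± 1.89 in non-Golden Retrievers (SD, n = 3), and the difference of 0.92 (SE 0.825, 95% confidence interval -0.94 to 2.77) had a limma adjusted p of 0.861. It was -0.08 without ChadP9 and 1.79 without Joey.

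PTGER2 lay close to the threshold in every dog. Its tested probe set (CfaAffx.22650.1.S1_s_at) had 5.15 at the lowest, 5.71 in the median and 5.91 at the highest in Golden Retrievers, 5.57 in DD1, and 5.72 in ChadP9, 5.12 in Dal4 and 6.13 in Joey. Dal4 and ChadG4 were the lowest and Joey the highest, and the difference was -0.06 (SE 0.248, 95% confidence interval -0.62 to 0.50, limma adjusted p = 0.978). A second probe set (Cfa.3657.1.S1_at) was below the threshold on all 10 arrays, at 2.40 to 4.55, although its r to the first was 0.89. The listed genes of the cyclic AMP response gave no call: 8 of 11 on the array were tested, 4 higher and 4 lower in Golden Retrievers. The phosphodiesterase PDE4B had the largest difference of these, 0.70 (SE 0.341, unadjusted p = 0.069 in limma).

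HPGD, the dehydrogenase that inactivates prostaglandins, was measured in a single dog. ChadG4 had 8.25, while the other Golden Retrievers had 3.73 in ChadG6, 3.40 in ChadG8, 4.56 in Frog, 3.20 in Journey and 2.92 in Tucker. DD1 had 3.64, and the non-Golden Retrievers had 3.36 in ChadP9, 3.12 in Dal4 and 3.07 in Joey. ChadG4 was 3.68 log2 units above the next dog, Frog, and the other 9 dogs were all below the threshold. HPGD was not tested for breed. With no filter the difference was 1.16 (SE 1.05, limma adjusted p = 0.925), and without ChadG4 the group means were 3.56 in Golden Retrievers and 3.19 in non-Golden Retrievers. ChadG4 had the lowest mean signal over the 5 smooth muscle markers, 7.34 against 8.68 to 10.97 in the other dogs, and it was also the lowest with ACTA2, its lowest marker relative to the other dogs, left out (7.57 against 7.68 to 10.24). Not every smooth muscle marker was lowest in ChadG4: CNN1 was lower in Joey (5.11 against 5.86) and DES in ChadG6 (6.46 against 6.93). ChadG4 also had the highest mean over the 4 mast cell markers, 4.81 against 4.21 to 4.61 in the other dogs. With FCER1A left out its mean of these markers was the lowest, at 3.94. The part of these markers in the HPGD signal was not tested.

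The rest of the pathway was read from 8 lists of 79 genes, of which 70 were on the array and 51 were tested. None had an adjusted p under 0.05. At an unadjusted p under 0.05 there were 2 genes, 3.92% of those tested, against 6.32% of all tested probe sets, and both came from the list of the other prostanoid receptors, of which 7 genes were tested. PTGDR, the receptor of prostaglandin D, had 9.75 at the lowest and 11.71 at the highest in Golden Retrievers, 9.60 in DD1, and 8.36 in ChadP9, 5.55 in Dal4 and 9.65 in Joey. The groups did not overlap, as for 2.45% of all tested probe sets, though Joey lay just below the lowest Golden Retriever, ChadG6. The means were 10.41 ± 0.72 in Golden Retrievers (SD, n = 6) and 7.86 ± 2.09 in non-Golden Retrievers (SD, n = 3). The difference was 2.55 (SE 0.783, unadjusted p = 0.00927, limma adjusted p = 0.774), and it was 1.40 without Dal4.

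PTGFRN, a membrane protein that restrains the prostaglandin F receptor, averaged 6.96 ± 0.33 in Golden Retrievers and 6.27 ± 0.68 in non-Golden Retrievers. The groups overlapped, and the difference of 0.69 (SE 0.297, unadjusted p = 0.0441, limma adjusted p = 0.774) was 0.37 with an unadjusted p of 0.23 without Dal4, the dog with the lowest signal (5.63). In the other lists no gene passed an unadjusted p of 0.05. Their largest differences were 0.14 for the phospholipase PLA2G4F, -0.34 for the reductase AKR1B1, 0.06 for the exporter ABCC4, 0.66 for the lipoxygenase ALOX15B, 0.43 for the transcription factor EGR1 and -0.47 for the HSP90 partner FKBP4. Several of these changed with single dogs. FKBP4 was 0.01 and ABCC4 -0.16 without Dal4, and AKR1B1 was -0.06 without Joey. ALOX15B was 0.28 without ChadG4 and 0.31 without ChadP9. Without ChadG4, ABCC4 was -0.01 and EGR1 was larger, at 0.86. Of the 4 listed cytokines that induce PTGS2, IL1A and IL1B lay below the threshold on all 10 arrays, IL6 lay above it on 4 and TNF on all 10, at 5.09 to 5.45. Also below it on all 10 arrays were the prostaglandin importer SLCO2A1, the receptor PTGER3 and the lipoxygenase ALOX5.

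For the 4 tested genes that ranged over 2 log2 units or more, the genes of most similar pattern over the 10 dogs were looked up among 19925 tested probe sets with 1 gene symbol. A high r is certain to occur among so many, so these are descriptions. PTGS2 was followed most closely by POMGNT1 (r = 0.94), an enzyme of protein O-mannose glycosylation, and next by the ascorbate transporter SLC23A2 (r = 0.90) and the secreted guidance factor SEMA3C (r = 0.89). Without Dal4 and Tucker these r were 0.86, 0.70 and 0.67. PTGES was followed by CSNK2A2 (r = 0.97), PRPF40B (r = 0.95) and LOC477518 (r = 0.95). PTGER4 was followed by RPS27A (r = 0.93), POLD2 (r = 0.93) and PRPF38B (r = 0.92), of which the ribosomal protein gene RPS27A moved only between 13.69 and 14.20. PLA2G4A was followed by BIRC6 (r = 0.94), CUL4A (r = 0.93) and DDA1 (r = 0.92), none of which is on the prostaglandin lists.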

How the data were processed

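Total RNA of the cultures was labelled as biotinylated cRNA and hybridized to Affymetrix Canine_2 arrays. The authors deposited log2 signals made by RMA with the affy package, per the submitters' processing notes. RMA gives the probe intensities of all arrays one distribution before summarizing them, so a shift common to all probe sets is largely removed. Versions, background settings and a genome build are not given in the sources used here. The table held 43035 rows, 111 of them controls, which were left out. Genes came from the platform annotation, which names 1 symbol for 29254 probe sets, several for 439 and none for 13231. Sex and age came from the study's list of dogs.

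Probe sets whose signal exceeded their array's 40th percentile on 3 or more of the 10 arrays were tested with limma 3.58.1 in R 4.3.3 (lmFit and eBayes, two-sided), Golden Retriever minus non-Golden Retriever, with Benjamini-Hochberg adjustment over all 26891. The methods' t-test was an alternative. The fit was tried on simulated data with independent normal noise. Those data held no single dogs set apart, so this was a check of the code and not of the results above. Where 1 value per gene was needed, its tested probe set of highest mean was used. All member probe sets are named; from the lists, those at an unadjusted p under 0.05 and the largest difference of each; for likeness, the 3 genes of highest r; of markers, PECAM1, CDH5 and PTPRC. Other markers and list genes were named after their values were seen. Members, lists and tests were chosen with earlier results of these data known.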

Additional observations from a re-analysis of the deposited data

Results flagged for a closer look

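Within the 6 Golden Retrievers, 2 of the 17 probe sets had 1 dog set apart from the others by Dixon's test, and it was ChadG4 both times. Chance flags about 1 in 20 groups, but the share flagged among all tested probe sets was not computed. ChadG4 was also among the last dogs to join the tree of all tested probe sets. Whether the flags are particular to these genes was not tested. HPGD (CfaAffx.12647.1.S1_at) was 8.25 in ChadG4, and the gap to the next Golden Retriever, Frog at 4.56, was 0.692 of the group's range. PLA2G4A (CfaAffx.21308.1.S1_s_at) was 9.80 in ChadG4 against 8.70 in ChadG8, the next, a gap of 0.663 of the range. The flag did not hold across the probe sets of PLA2G4A. By Cfa.2937.1.A1_at, which represents the gene, ChadG4 was also highest, but the gap of 0.545 of the range was not flagged. By Cfa.2557.1.S1_at ChadG4 was lowest, and the gap of 0.168 of the range was not flagged. The non-Golden Retrievers, 3 in number, were too few for this test.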

How the results depend on the processing

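No member probe set had an adjusted p under 0.05 in any of the 20 alternatives, and the lowest adjusted p of the 8 genes by their representing probe sets was 0.594. With 9 purebred dogs the confidence intervals of PTGS2 and PTGER4 span several log2 units, so differences of that size could not be shown or set aside. Probe sets near the 40th percentile, such as those of PTGER2, carry little signal over background. Of 160 differences under the alternatives, 145 kept their direction and 15 reversed; the cause was not tested. PTGES2 was 0.11 in males only and with sex as a covariate, and 0.084 with DD1 counted as a non-Golden Retriever, where PTGIS was 0.027. Without ChadG4 and Dal4, a setting chosen after seeing the data, PTGIS was 0.22, PLA2G4A was -0.203 and 1 member probe set had an unadjusted p under 0.05, Cfa.12740.1.S1_s_at of PTGES2. With 1 dog left out in turn, the count at an unadjusted p under 0.05 was 0 to 1: that probe set without Dal4, and Cfa.2937.1.A1_at of PLA2G4A without Joey. The differences then ran from 0.42 to 3.13 for PTGS2, from -1.10 to 0.333 for PTGES, from -0.314 to 0.209 for PTGES2, from -0.24 to -0.021 for PTGES3, from -0.265 to 0.243 for PTGIS, from -0.33 to 0.175 for PTGER2, from -0.082 to 1.791 for PTGER4 and from -0.001 to 0.962 for PLA2G4A. PTGDR kept an unadjusted p under 0.05 in all 20 alternatives and PTGFRN in 7. PTGFRN did not in the other 13, among them the methods' t-test, males only and sex as a covariate. No paired analysis was possible because each dog gave 1 array and belonged to 1 group.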
